A study of Mus musculus with 20 samples.

Results

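The genes described are 8 Krüppel-like transcription factors of the mouse, Klf3, Klf6, Klf7, Klf9, Klf10, Klf12, Klf13 and Klf16. They are a listed part of the family, with Klf2, Klf4 and Klf5 left out, and were matched by symbol to the Ensembl gene identifiers of the count tables. All 8 were found among 30265 genes, in tables that hold 17 genes of the family. Klf1, Klf8, Klf11, Klf14, Klf15 and Klf17 were not on the list either, so the 8 do not stand for the whole remaining family. Polyadenylated RNA was sequenced in 2 experiments that changed Klf5. Embryonic stem cells (ESCs, pluripotent cells of the early embryo kept in culture) of a C57BL/6J line overexpressed Klf5 (2 libraries) or green fluorescent protein, GFP (2 libraries), and all 4 cultures grew with the cytokine LIF on irradiated C57BL/6J fibroblast feeders. Single E4.5 embryos, a late blastocyst stage, had received an siRNA to Klf5 (6 embryos) or a scramble siRNA (10 embryos), with 1 library per embryo. The embryos came from mice whose strain is spelled C57BL/5J in the labels and were cultured in KSOM with BSA. The labels name neither the promoter that drove Klf5 or GFP nor the number of clones, and whether replicate ESC libraries came from separate cultures is not stated there, so that ESC p-values measure the spread between these libraries, which may be technical.

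As background, Krüppel-like factors bind GC-rich and CACCC elements of promoters and enhancers through zinc fingers at the C terminus, and differ mainly in the N-terminal part that recruits coactivators or corepressors. Klf3 and Klf12 are repressors that recruit CtBP, and Klf9, Klf10, Klf13 and Klf16 carry a domain that recruits the Sin3 complex. Klf6 and Klf7 are close relatives of each other that act mainly as activators. Klf2, Klf4 and Klf5 are the members best known for holding ESCs in the naive pluripotent state, and Klf5 is also needed in the trophectoderm, the outer layer of the blastocyst that forms the placenta.

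In units of 1e6 estimated counts, library totals ran from 26.8 to 37.5 in ESCs and from 14.7 to 24.9 in embryos. A count of 0 allows up to 3 counts, which for counting error only is 0.0800 to 0.112 CPM (counts per 1e6 counts) in an ESC library or 0.120 to 0.204 CPM in an embryo library. The labelled cell types were checked by their markers. Pou5f1, a core pluripotency factor, had 2839 and 3082 CPM in Klf5-overexpressing ESCs, against 2541 and 2707 CPM in GFP ESCs. Pou5f1 ranged from 61.3 to 216 CPM in Klf5 siRNA embryos and from 15.9 to 140 CPM in scramble embryos. Cdx2, a trophectoderm factor, ranged from 0.364 to 18.1 CPM in Klf5 siRNA embryos and from 14.8 to 132 CPM in scramble embryos. In ESCs it had 0.925 to 1.49 CPM with Klf5 overexpression and 0.948 to 1.43 CPM with GFP, so the lowest siRNA embryo lay below every ESC library. Sox2, another pluripotency factor, had 0.538 to 4.73 CPM in Klf5 siRNA embryos and 1.01 to 11.8 CPM in scramble embryos. Klf5 itself had 942 and 882 CPM in Klf5-overexpressing ESCs, against 80.5 and 70.8 CPM in GFP ESCs. In embryos Klf5 had a lowest, median and highest level of 80.8, 156 and 543 CPM with Klf5 siRNA, against 382, 472 and 592 CPM with scramble siRNA. The embryo labelled Klf5 siRNA 1 carried the 543 CPM, within the scramble range, and the other 5 lay below every scramble embryo. The log2 fold changes of the 8 genes in embryos are therefore given with and without that embryo.

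In ESCs, Klf3 and Klf9 rose with Klf5 and none of the 8 genes fell past the threshold. Klf3 was 2.39-fold and Klf9 1.55-fold higher in Klf5-overexpressing cells (edgeR quasi-likelihood test, Benjamini-Hochberg adjusted p = 0.0325 and 0.0382 over all genes tested). These 2 of 8 stand beside 2.78% of all 15968 genes tested, of which 1.67% were called higher and 1.11% lower. The median log2 fold change of the 8 genes was 0.05, against -0.00 over all genes tested. By values alone, Klf3, Klf9 and Klf13 were higher and Klf6, Klf7 and Klf16 lower in both Klf5-overexpressing libraries than in both GFP libraries, and Klf10 and Klf12 overlapped. With 2 libraries a group such separation is common, and 56.4% of all genes tested showed it, 28.9% higher and 27.4% lower.

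**Figure D1:**
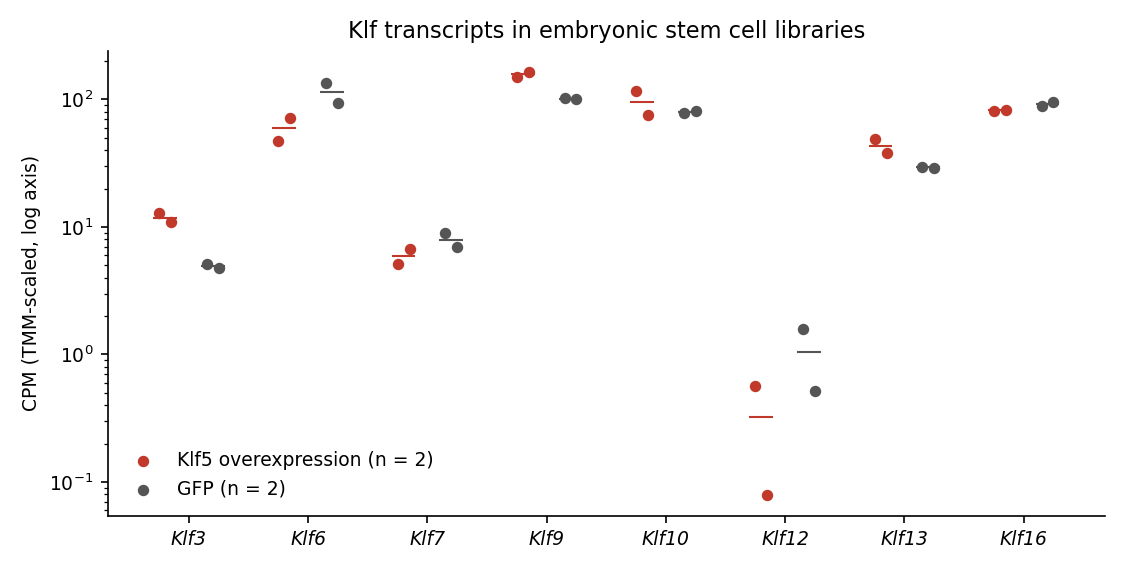
CPM (log axis, TMM-scaled) of the 8 genes in ESC libraries, with Klf5-overexpressing cells in red to the left of GFP cells in dark grey; points are libraries and bars are group means (n = 2 each). Klf3 stood at 10.8 to 12.8 CPM in Klf5-overexpressing cells and 4.80 to 5.09 CPM in GFP cells, and Klf12 was the lowest of the 8 in both groups.

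Klf3 (ENSMUSG00000029178, chromosome 5, 64803388 to 64832901, mm10), a CtBP-binding repressor, had 12.8 and 10.8 CPM in Klf5-overexpressing ESCs, against 5.09 and 4.80 CPM in GFP ESCs. The groups did not overlap, and the replicates of each group lay close together. The log2 fold change was 1.26 ± 0.19 (SE, n = 2 each, edgeR adjusted p = 0.0325). The call was lost when GFP 1 was left out (1.30) and when GFP 2 was left out (1.21), with the size of the difference hardly moved. Each of those fits has 1 GFP library, so the loss cannot be told apart from the effect of having fewer libraries. Klf12 (ENSMUSG00000072294, chromosome 14, 99870632 to 100284679), the other CtBP-binding repressor of the set, was scarce. It had 0.571 and 0.0799 CPM in Klf5-overexpressing ESCs, against 1.59 and 0.515 CPM in GFP ESCs. The lower Klf5-overexpressing library was at about the level of 3 counts, the groups overlapped, and the log2 fold change of -1.65 ± 0.91 missed the threshold (edgeR adjusted p = 0.329).

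The proximal promoter of Klf3 is shown because Klf3 had the largest fold of the genes called and because Klf factors bind the motifs marked in it. RefSeq (GRCm38.p6, the assembly that mm10 names) places it at chr5:64803271-64803570 on the plus strand, from 250 bases before to 50 bases after the start. Capitals mark CACCC and GGGCGG on either strand, where neighbouring or overlapping matches run together.
Klf3: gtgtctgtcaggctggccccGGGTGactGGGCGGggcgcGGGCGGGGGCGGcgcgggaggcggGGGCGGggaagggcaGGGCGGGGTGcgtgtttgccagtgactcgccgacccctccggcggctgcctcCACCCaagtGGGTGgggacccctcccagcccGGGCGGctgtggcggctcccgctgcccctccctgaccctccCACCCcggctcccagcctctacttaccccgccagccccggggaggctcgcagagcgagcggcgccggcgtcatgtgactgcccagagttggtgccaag
The window held 5 matches to CACCC, 6 to GGGCGG and none to TATAAA, with a GC content of 76.7%. Among 32851 mouse promoters of this length, 57.5% held CACCC at least once, 35.7% GGGCGG and 13.6% TATAAA. A match is a run of letters and was not measured as a binding site.

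Klf9 (ENSMUSG00000033863, chromosome 19, 23141226 to 23168134), a Sin3-binding factor whose gene is induced by thyroid hormone and glucocorticoids, had 150 and 164 CPM in Klf5-overexpressing ESCs, against 102 and 101 CPM in GFP ESCs. Both overexpressing libraries were above both GFP libraries. Its log2 fold change was 0.63 ± 0.11 (SE, n = 2 each, edgeR adjusted p = 0.0382). That call was also lost without GFP 1 and without GFP 2, at log2 fold changes of 0.64 and 0.62. With 1 GFP library left, this loss cannot be told apart from the effect of having fewer libraries.

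Klf13 (ENSMUSG00000052040, chromosome 7, 63886351 to 63938915), a close relative of Klf9 with the same kind of Sin3-binding domain, had 49.2 and 37.7 CPM in Klf5-overexpressing ESCs, against 29.7 and 28.9 CPM in GFP ESCs. The groups were apart, but the overexpressing libraries differed from each other more than the GFP libraries did. The log2 fold change of 0.57 ± 0.16 missed the threshold (edgeR adjusted p = 0.0942). Without Klf5-overexpressing library 2 it was 0.75 and called (edgeR adjusted p = 0.0256).

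Klf10 (ENSMUSG00000037465, chromosome 15, 38291463 to 38300706), an early target of TGF-beta, had 116 and 75.9 CPM in Klf5-overexpressing ESCs, against 78.0 and 81.2 CPM in GFP ESCs. The overexpressing libraries lay on opposite sides of the GFP libraries. The log2 fold change of 0.27 ± 0.20 (edgeR adjusted p = 0.452) therefore rested on library 1: it was -0.07 without that library and 0.55 without library 2 (edgeR adjusted p = 0.0461). Klf16 (ENSMUSG00000035397, chromosome 10, 80567124 to 80577321), a GC-box-binding repressor, had 81.5 and 83.1 CPM in Klf5-overexpressing ESCs, against 89.3 and 95.2 CPM in GFP ESCs. Its replicates lay close together and its groups were apart by a small margin, with a log2 fold change of -0.17 ± 0.11 (edgeR adjusted p = 0.391).

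Klf6 (ENSMUSG00000000078, chromosome 13, 5861482 to 5870394), a widely expressed factor of the immediate early type, had 47.4 and 72.0 CPM in Klf5-overexpressing ESCs, against 133 and 94.0 CPM in GFP ESCs. Its groups did not overlap, but libraries of the same group differed from each other by more than the gap between the groups. Its log2 fold change was -0.93 ± 0.25 (edgeR adjusted p = 0.112), and it was -1.26 and called without Klf5-overexpressing library 2 (edgeR adjusted p = 0.0413). Klf7 (ENSMUSG00000025959, chromosome 1, 64029447 to 64122282), known from axon growth in neurons, had 5.11 and 6.66 CPM in Klf5-overexpressing ESCs, against 8.91 and 7.02 CPM in GFP ESCs. The nearest libraries of the 2 groups were almost level, and the log2 fold change was -0.43 ± 0.23 (edgeR adjusted p = 0.306). Exons of Klf3 and Klf7 overlap annotated transcripts of the opposite strand that the tables do not list, so reads of those transcripts, if present, could not be separated.

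Other cell types moved with the groups in ESCs. The 18 fibroblast markers, of which none was at 0, summed to 2291 and 2444 CPM in Klf5-overexpressing libraries, against 1891 and 1973 CPM in GFP libraries, and 1 of 16 tested was called, Col1a2, a collagen chain (338 ± 21.3 against 197 ± 22.8 CPM, SD, n = 2 each). The 12 primitive endoderm markers summed to between 1668 and 4599 CPM in Klf5-overexpressing libraries and between 1129 and 1669 CPM in GFP libraries, and 4 of 12 were called higher by edgeR, among them Sox7, an endodermal transcription factor (log2 fold change 3.37 ± 0.41, edgeR adjusted p = 0.0285). That count was 0 without GFP 1 or GFP 2, 11 without Klf5-overexpressing library 1, 7 without library 2, 7 by DESeq2 and 0 by limma voom. Col1a2 also lost its call without GFP 1 or GFP 2. Those fits have 1 GFP library, so these losses cannot be told apart from the effect of having fewer libraries. Of the 16 fibroblast markers tested, 8 were higher and 0 lower at an unadjusted p under 0.05 by edgeR. DESeq2 called 5 of the fibroblast markers higher, edgeR with no filter 5 and limma voom 0. Their median log2 fold change was 0.38, against -0.00 over all genes tested, of which edgeR called 2.78%. Over all genes, 3710 of 15968 had an unadjusted p under 0.05 by edgeR, in either direction. DESeq2 called 1435 of 21724 genes, edgeR with no filter 870 of 21724 and limma voom 115 of 15968. The 12 trophectoderm markers summed to 353 and 714 CPM in Klf5-overexpressing libraries, against 958 and 1946 CPM in GFP libraries. None of the 24 markers of trophectoderm and of inner cell mass and epiblast was called by edgeR, against 6 higher and 4 lower at an unadjusted p under 0.05, 5 higher and 3 lower by DESeq2 and none by limma voom. The part of feeder or endoderm RNA in the levels of Klf3 and Klf9 was not tested. In bulk libraries, fewer cells of a type and less RNA per cell cannot be told apart.

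In embryos, Klf9 and Klf13 were lower with Klf5 siRNA, and no gene of the 8 was called higher. Klf9 was 1.64-fold and Klf13 1.97-fold lower than in scramble embryos (edgeR quasi-likelihood adjusted p = 0.0416 and 0.0421 over all genes). Klf9 was thus called in both experiments, higher where Klf5 was raised and lower with the siRNA. How many of all genes were called in both experiments was not counted. The 2 genes called stand beside 19.8% of all 12385 genes tested, 12.0% higher and 7.74% lower, and 7 of the 8 genes passed the filter on low counts. Over those 7 the median log2 fold change was -0.71, against -0.01 over all genes tested. In none of the 8 genes were the groups apart, as they were in 4.81% of all genes tested (2.91% higher, 1.91% lower).

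**Figure D2:**
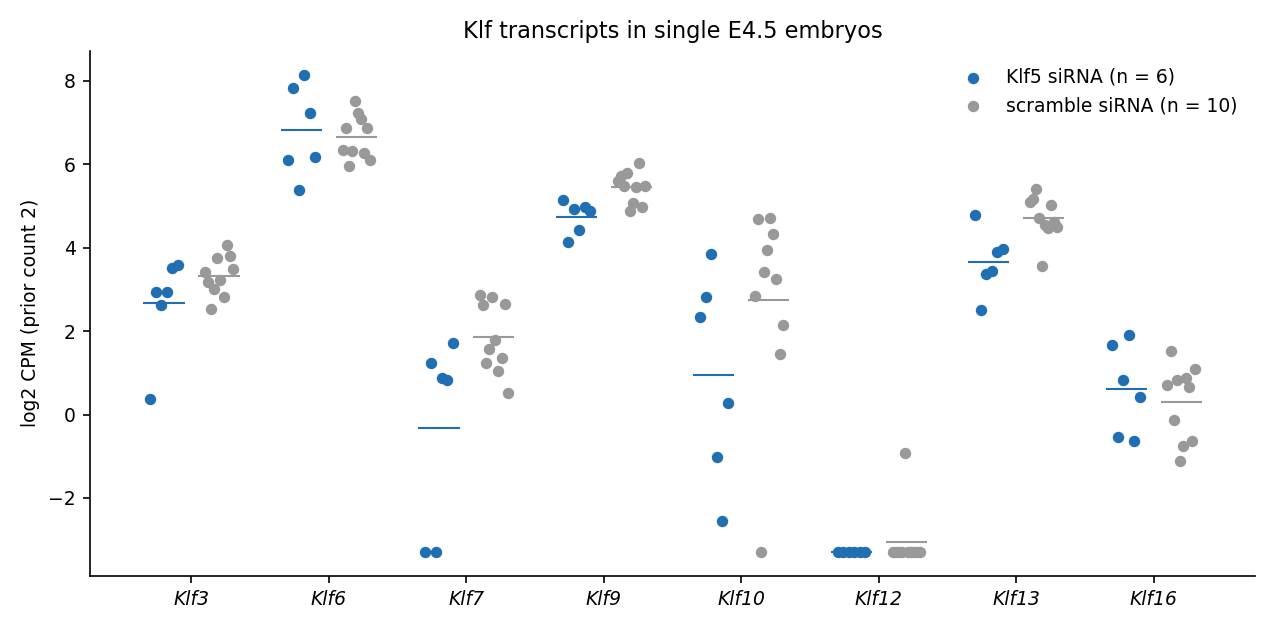
Level of the 8 genes in each E4.5 embryo as log2 CPM with a prior count of 2, with Klf5 siRNA embryos (blue, n = 6) to the left of scramble embryos (grey, n = 10); bars are group means. All 6 Klf5 siRNA embryos lay below the scramble median of Klf9, and 5 of 6 below that of Klf13, with overlap in both genes; points at the lower edge are counts of 0.

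Klf9 had a lowest, median and highest level of 17.4, 29.7 and 35.2 CPM in Klf5 siRNA embryos, against 29.4, 44.5 and 65.4 CPM in scramble embryos. All 6 siRNA embryos lay below the scramble median and 3 of 6 below every scramble embryo, and the spread within each group was similar, with a coefficient of variation of 24.3% with Klf5 siRNA and 25.3% with scramble siRNA. Its log2 fold change was -0.71 ± 0.24 (SE, n = 6 and 10, edgeR adjusted p = 0.0416) and -0.80 without the embryo labelled Klf5 siRNA 1 (edgeR adjusted p = 0.0377). Over all 16 omissions of an embryo it ran from -0.80 to -0.61, with edgeR adjusted p between 0.0275 and 0.0924. The call held in 4 of them, without Klf5 siRNA 1 or scramble 5, 6 or 9, and was lost without Klf5 siRNA 2 to 6 or scramble 1 to 4, 7, 8 or 10.

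Klf13 had a lowest, median and highest level of 5.61, 12.7 and 27.3 CPM in Klf5 siRNA embryos, against 11.6, 25.3 and 42.5 CPM in scramble embryos. The highest siRNA value belonged to the embryo labelled Klf5 siRNA 1, whose Klf5 was at the control level, and 3 of 6 siRNA embryos lay below every scramble embryo. The log2 fold change was -0.98 ± 0.33 (SE, n = 6 and 10, edgeR adjusted p = 0.0421) and -1.29 ± 0.33 without that embryo (edgeR adjusted p = 0.0108). Over the 16 omissions it ran from -1.29 to -0.82, with edgeR adjusted p between 0.0108 and 0.083. The call held in 5 of them, without Klf5 siRNA 1 or scramble 5, 6, 7 or 10, and was lost without Klf5 siRNA 2 to 6 or scramble 1 to 4, 8 or 9.

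The promoters of Klf9 and Klf13 are shown as those of the genes called in embryos, with the same marking and source as for Klf3. That of Klf9 lies at chr19:23140976-23141275 on the plus strand and that of Klf13 at chr7:63938866-63939165 on the minus strand (RefSeq, GRCm38.p6).
Klf9: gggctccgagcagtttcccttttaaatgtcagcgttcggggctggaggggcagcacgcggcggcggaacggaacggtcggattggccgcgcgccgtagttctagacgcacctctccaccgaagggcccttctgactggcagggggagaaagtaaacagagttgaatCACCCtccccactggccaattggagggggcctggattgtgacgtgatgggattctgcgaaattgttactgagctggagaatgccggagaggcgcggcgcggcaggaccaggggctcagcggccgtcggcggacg
Klf13: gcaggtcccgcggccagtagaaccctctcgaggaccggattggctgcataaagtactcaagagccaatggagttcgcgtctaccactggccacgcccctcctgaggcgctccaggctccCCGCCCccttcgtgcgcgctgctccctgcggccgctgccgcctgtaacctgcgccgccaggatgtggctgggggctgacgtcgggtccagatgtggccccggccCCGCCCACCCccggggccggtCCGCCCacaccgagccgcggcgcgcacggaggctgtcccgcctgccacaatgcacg
Klf9 had 1 match to CACCC and none to GGGCGG in a window of 63.3% GC, and Klf13 had 1 match to CACCC and 3 to GGGCGG in a window of 72.0% GC. Of the other genes, Klf6 had no CACCC and 1 GGGCGG, Klf7 had 3 and 1, and Klf12 had 1 CACCC and no GGGCGG. Promoter entries were matched for 6 of the 8 genes, and those of Klf10 and Klf16 were not used here.

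Library properties moved with the embryo groups. The mitochondrial share of counts was 5.02 ± 2.78% with Klf5 siRNA and 12.1 ± 4.84% with scramble siRNA (SD, exact permutation p = 0.00724, n = 6 and 10), and the ribosomal protein share was 11.1 ± 2.34% with Klf5 siRNA and 7.14 ± 1.68% with scramble siRNA (exact permutation p = 0.00125). Without the embryo labelled Klf5 siRNA 1 these shares were 4.96 ± 3.10% and 10.5 ± 1.93% with Klf5 siRNA (SD, n = 5). Within the scramble group, the 3 embryos with the lowest mitochondrial percent, numbers 5, 6 and 9 at 4.34, 5.48 and 8.04%, also had the 3 lowest Klf9 levels, at 29.4, 33.4 and 31.3 CPM. For Klf13 these 3 embryos had ranks 1, 4 and 5 of 10 from the lowest. At the other end, scramble 7 had the highest mitochondrial percent, 18.5%, with rank 4 for Klf9 and rank 2 for Klf13. In the siRNA group, embryo 2 had the highest mitochondrial percent, 10.3%, and the lowest Klf9 (17.4 CPM) and Klf13 (5.61 CPM). With the mitochondrial percent as a covariate, the log2 fold change was -0.45 for Klf9 (edgeR adjusted p = 0.356) and -0.69 for Klf13 (edgeR adjusted p = 0.325), or -0.55 and -1.06 without the embryo labelled Klf5 siRNA 1 (edgeR adjusted p = 0.287 and 0.116).

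Transcript length moved with the groups too. When tested genes were divided by length into 10 equal bins, the shortest had a median log2 fold change of 0.88 and the longest -0.34, and the bins that hold Klf9 and Klf13 (longest transcripts of 4486 and 6396 bases) had medians of -0.27 and -0.29. With the length trend of each library taken up as an offset, the log2 fold change was -0.41 for Klf9 (edgeR adjusted p = 0.204) and -0.56 for Klf13 (edgeR adjusted p = 0.21), or -0.47 and -0.81 without the embryo labelled Klf5 siRNA 1 (edgeR adjusted p = 0.173 and 0.0699). The library numbers of all Klf5 siRNA embryos, 11 to 19, follow those of the scramble embryos, 1 to 10, so that an effect of the order of libraries and that of the siRNA cannot be told apart.

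Of the remaining Sin3-binding genes, Klf10 had a lowest, median and highest level of 0.0673, 3.05 and 14.3 CPM in Klf5 siRNA embryos, against 0, 9.98 and 26.3 CPM in scramble embryos. It was the most variable of the 7 genes tested in both groups, with a coefficient of variation of 118% with Klf5 siRNA and 77.2% with scramble siRNA, and the siRNA embryos lay inside the scramble range. Its log2 fold change of -1.38 ± 0.92 missed the threshold (edgeR adjusted p = 0.311; -1.40 without the embryo labelled Klf5 siRNA 1, edgeR adjusted p = 0.366). Klf16 was scarce, at 0.538, 1.46 and 3.64 CPM in Klf5 siRNA embryos against 0.362, 1.51 and 2.78 CPM in scramble embryos (lowest, median, highest). Its ranges nearly coincided, with a log2 fold change of 0.42 ± 0.64 (edgeR adjusted p = 0.689), or 0.19 without the embryo labelled Klf5 siRNA 1 (edgeR adjusted p = 0.886).

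Of the CtBP-binding genes, Klf3 had 1.20, 7.59 and 11.9 CPM in Klf5 siRNA embryos, against 5.63, 9.87 and 16.7 CPM in scramble embryos (lowest, median, highest). The 1.20 CPM belonged to the embryo labelled Klf5 siRNA 1, and the other 5 lay within the scramble range. The log2 fold change was -0.45 ± 0.39 (edgeR adjusted p = 0.444) and -0.25 without that embryo (edgeR adjusted p = 0.638). Klf12 was at 0 in all 6 Klf5 siRNA embryos and in 9 of 10 scramble embryos, and had 0.422 CPM in scramble 5. It did not pass the filter, so its change in embryos was not detectable at this depth.

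Klf6 was the most abundant of the 8 in embryos per transcript length, and had 42.0, 111 and 284 CPM in Klf5 siRNA embryos, against 62.4, 99.3 and 182 CPM in scramble embryos (lowest, median, highest). The siRNA embryos reached both below and above the scramble range, with 1 of 6 below it and 2 of 6, embryos 2 and 4, above it. The log2 fold change was 0.39 ± 0.36 (edgeR adjusted p = 0.480), 0.49 without the embryo labelled Klf5 siRNA 1 (edgeR adjusted p = 0.377) and -0.38 without embryos 2 and 4 (edgeR adjusted p = 0.493). As that pair had the 2 highest Klf6 levels and the 2 lowest Klf9 levels of the siRNA group, the turn of Klf6, and a smaller Klf9 difference of -0.51 (edgeR adjusted p = 0.189), follow from the omission itself. Klf7 had 0, 1.71 and 3.17 CPM in Klf5 siRNA embryos, against 1.33, 3.11 and 7.15 CPM in scramble embryos (lowest, median, highest). Embryos 1 and 3 of the siRNA group had no count, while every scramble embryo had some. Its log2 fold change of -1.46 ± 0.83 missed the threshold (edgeR adjusted p = 0.226), and was -1.24 without the embryo labelled Klf5 siRNA 1 (edgeR adjusted p = 0.275).

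**Figure D3:**
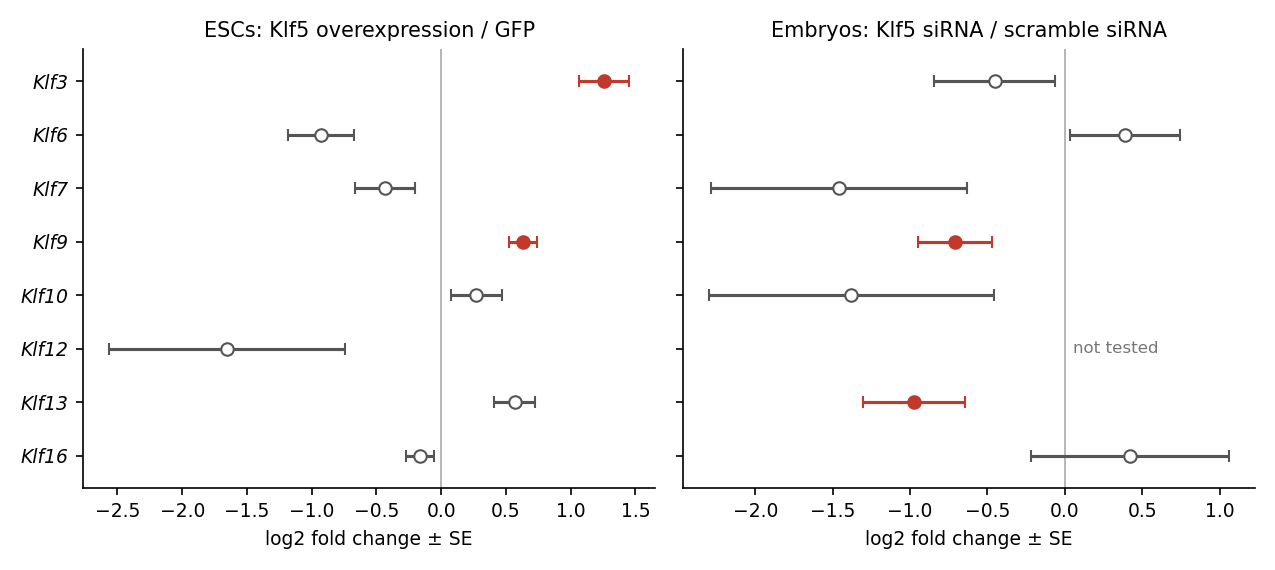
Log2 fold change ± SE of each gene, for Klf5 overexpression over GFP in ESCs (left, n = 2 each) and Klf5 siRNA over scramble siRNA in embryos (right, n = 6 and 10); red filled points passed an edgeR adjusted p of 0.05. Klf9 was at 0.63 in ESCs and -0.71 in embryos, and Klf12 was not tested in embryos.

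Set side by side, the experiments share no libraries but differ in cells, kit and spread, and the difference between their folds was not tested. The common biological coefficient of variation was 0.163 in ESCs and 0.739 in embryos, so the same fold is measured less precisely in embryos. Klf3, Klf9, Klf10 and Klf13 had positive log2 fold changes with Klf5 overexpression and negative ones with Klf5 siRNA, and Klf6 and Klf16 the reverse. Klf7 was below 0 in both. Of these 7 genes, Klf9 alone passed the threshold in both experiments. Several of the signs are uncertain. Klf10 in ESCs (0.27 ± 0.20) turned to -0.07 without Klf5-overexpressing library 1, and Klf16 in embryos was at 0.42 ± 0.64. In embryos, Klf6 turned to -0.38 without Klf5 siRNA 2 and 4, and Klf3 to 0.12 with the length offset without Klf5 siRNA 1. The shares of all genes with opposite signs, and of all genes called in both experiments, were not counted. The signs and the double call of Klf9 are therefore given as description.

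Within the siRNA groups, the level of each gene was set against that of Klf5 over embryos, as log2 CPM. None of 14 relations (7 genes, 2 groups) passed adjustment, the smallest adjusted p being 0.508 by permutation of Pearson's r and 0.408 by permutation of Spearman's rho. In Klf5 siRNA embryos (n = 6), r was 0.71 for Klf9 (exact permutation p = 0.115, rho 0.71, p = 0.136), 0.74 for Klf13 (exact permutation p = 0.0917, rho 0.71, p = 0.136) and -0.76 for Klf6 (exact permutation p = 0.0792, rho -0.83, p = 0.0583). Without the 2 embryos farthest from the median of Klf5, numbers 1 and 6, r was 0.56 for Klf9, 0.03 for Klf13 and -0.97 for Klf6, so the relation of Klf13 rested on those embryos. In scramble embryos (n = 10), where Klf5 varied little, r was -0.04 for Klf9 (permutation p = 0.919) and 0.14 for Klf13 (permutation p = 0.720). For Klf16 in that group r was 0.46 (permutation p = 0.181) and rho 0.64 (permutation p = 0.0537), the smallest p by rho of the 14 relations.

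**Figure D4:**
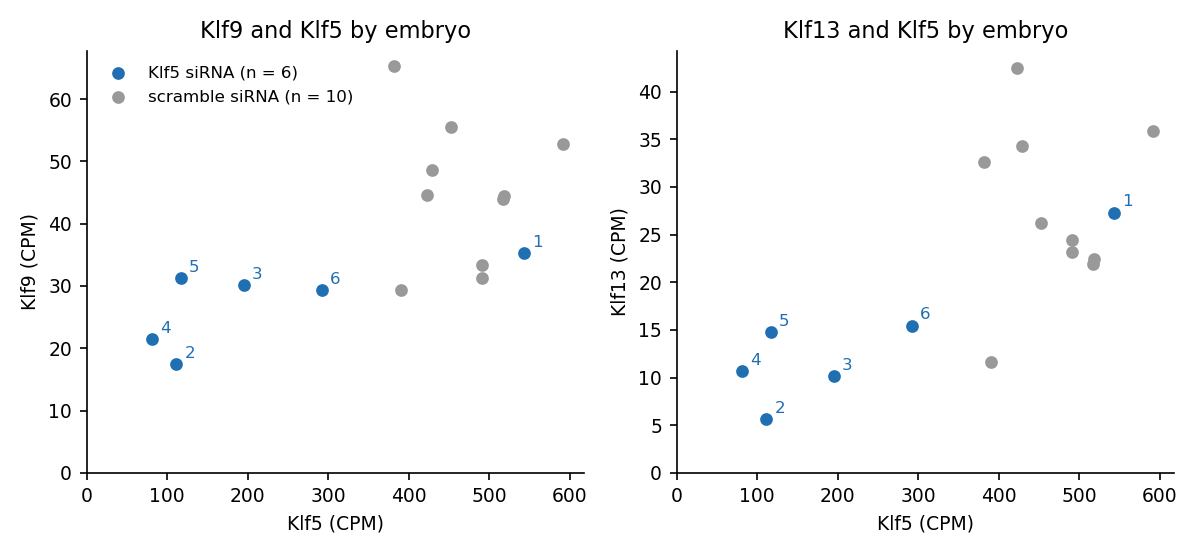
Klf9 (left) and Klf13 (right) against Klf5, in CPM, for each Klf5 siRNA embryo (blue, numbered, n = 6) and each scramble embryo (grey, n = 10). Embryo 1 of the siRNA group lies with the scramble embryos in Klf5 (543 CPM) and has the highest Klf9 (35.2 CPM) and Klf13 (27.3 CPM) of its group.

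Levels of different genes were compared as CPM per kilobase of the longest annotated transcript. In scramble embryos the order was Klf6 (25.4 ± 9.45 CPM per kilobase, SD, n = 10), Klf9 (10.0 ± 2.54), Klf13 (4.30 ± 1.38), Klf10 (3.98 ± 3.07), Klf3 (2.00 ± 0.660), Klf7 (0.530 ± 0.296), Klf16 (0.503 ± 0.293) and Klf12 (0.00717 ± 0.0227). Of 7 neighbouring pairs, 4 differed beyond their spread over embryos, each in 10 of 10 embryos (exact sign-flip permutation p = 0.00195, the smallest that 10 embryos can give, adjusted 0.00342). These were Klf6 above Klf9, Klf9 above Klf13, Klf3 above Klf7 and Klf16 above Klf12. Klf13 and Klf10 (exact adjusted p = 0.509), Klf10 and Klf3 (exact adjusted p = 0.994) and Klf7 and Klf16 (exact adjusted p = 0.973) did not differ beyond their spread. The place of Klf9 and Klf13 turned with the length used: per kilobase of the median transcript length, Klf13 lay above Klf9 in 10 of 10 embryos (log2 difference 1.13, exact adjusted p = 0.00456). By that length Klf7 also lay above Klf16 in 10 of 10 embryos (log2 difference 2.48, exact adjusted p = 0.00456). Klf6 was also first in Klf5 siRNA embryos, at 33.2 ± 23.1 CPM per kilobase, followed by Klf9 at 6.12 ± 1.49 (n = 6), or 36.6 ± 24.1 and 5.78 ± 1.37 without the embryo labelled Klf5 siRNA 1.

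Per kilobase of the longest transcript, ESCs had another order. ESC ranks by the median transcript length were not computed. For Klf16 that length equals the longest (2674 bases), but for Klf13 it is 766.5 against 6396 bases. The ESC ranks below therefore hold for the longest transcript only, and may move with the length used. In Klf5-overexpressing cells Klf9 came first (35.0 ± 2.23 CPM per kilobase, SD, n = 2), overlapping with Klf10 (31.6 ± 9.42), which overlapped with Klf16 (30.8 ± 0.424), then Klf6 (14.1 ± 4.11). In GFP cells Klf16 came first (34.5 ± 1.56), then Klf6 (26.9 ± 6.54) and Klf10 (26.1 ± 0.762), which overlapped, and Klf9 (22.6 ± 0.171). Klf13, Klf3, Klf7 and Klf12 were the 4 lowest in both groups, with Klf3 above Klf7 in Klf5-overexpressing cells (2.26 ± 0.264 and 0.768 ± 0.142) and overlapping with it in GFP cells (0.947 ± 0.0399 and 1.04 ± 0.175). Klf16 thus had rank 3 of 8 in Klf5-overexpressing ESCs and rank 1 in GFP ESCs, but rank 6 in Klf5 siRNA embryos and rank 7 in scramble embryos, a difference between experiments with unlike library kits that was not tested.

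**Figure D5:**
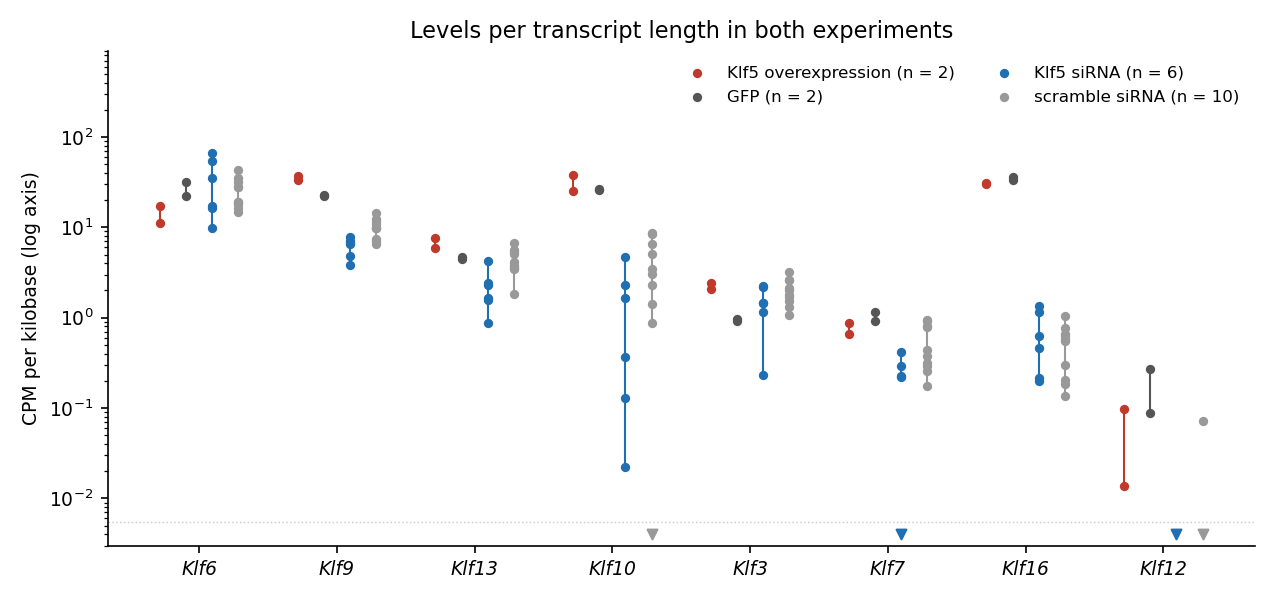
CPM per kilobase of the longest transcript (log axis) of the 8 genes in Klf5-overexpressing ESCs (red), GFP ESCs (dark grey), Klf5 siRNA embryos (blue) and scramble embryos (light grey), ordered by the scramble mean; points are libraries, lines span a group and triangles at the foot mark libraries at 0. Klf16 stood at 30.5 to 35.6 CPM per kilobase in ESCs and at 0.135 to 1.36 in embryos.

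Together the 8 genes summed to 121 ± 4.11 CPM per kilobase in Klf5-overexpressing ESCs and 117 ± 4.82 in GFP ESCs (SD, n = 2 each), and to 45.4 ± 20.8 in Klf5 siRNA embryos against 46.7 ± 9.92 in scramble embryos (n = 6 and 10; 48.2 ± 21.9 in the siRNA group without the embryo labelled Klf5 siRNA 1). Among all 17 Klf genes they made up 14.0 ± 0.476% of the summed level in Klf5-overexpressing ESCs and 20.3 ± 2.34% in GFP ESCs. In embryos their share was 31.2 ± 14.5% with Klf5 siRNA and 21.3 ± 4.43% with scramble siRNA. Klf5 is part of that sum, so the shares move with the Klf5 level that the experiments set. Of the 9 Klf genes outside the set, edgeR called 1 in ESCs, Klf5, against 3 by DESeq2 and 2 with no filter, and of 7 tested in embryos Klf5 was called lower and Klf2 higher. Klf2 was 2.30-fold higher with Klf5 siRNA (30.6 ± 20.8 against 13.3 ± 5.49 CPM, SD, n = 6 and 10, edgeR adjusted p = 0.0215). Its call was lost without Klf5 siRNA 5 (edgeR adjusted p = 0.116), and that of Klf5 in 4 of 16 omissions, without Klf5 siRNA 2, 3, 4 or 5 (highest edgeR adjusted p = 0.0672).

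Genes that work with these factors were counted by list. In ESCs, 5 lists held no call by edgeR among 64 genes tested: Sp factors (close relatives that bind GC boxes), CtBP and Sin3 corepressors, TGF-beta response genes, and thyroid, glucocorticoid and clock genes. Over all 15968 genes tested, edgeR called 2.78%, and 3710 had an unadjusted p under 0.05. At that unadjusted p the edgeR test gave 7 of the 64 higher and 10 lower, DESeq2 called 2 higher and 6 lower, and limma voom called none. The median log2 fold changes of the 5 lists lay between -0.18 for the hormone and clock genes and 0.12 for TGF-beta response genes, against -0.00 over all genes. The smallest p among the Sin3 genes was that of Sin3b, a scaffold of the complex, at 127 ± 10.7 CPM in Klf5-overexpressing ESCs and 220 ± 46.9 CPM in GFP ESCs (SD, n = 2 each, edgeR adjusted p = 0.0539). Among the CtBP genes it was that of Ctbp2, at 180 ± 18.6 CPM in Klf5-overexpressing ESCs and 132 ± 4.95 CPM in GFP ESCs (SD, n = 2 each, edgeR adjusted p = 0.0864). Among 21 immediate early genes, which serum and stress induce within minutes, 1 was called, Fosb, at 372 ± 39.4 CPM in Klf5-overexpressing ESCs and 793 ± 120 CPM in GFP ESCs (2.13-fold lower, edgeR adjusted p = 0.0295), with a list median of -0.30. Fosb lost its call without GFP 1 (edgeR adjusted p = 0.146), and the number of immediate early genes called lower was 0 without GFP 1, 4 without Klf5-overexpressing library 2, 4 by DESeq2 and 0 with the replicate block.

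In embryos the corepressor lists held calls in both directions. Beside these lists and those that follow, edgeR called 19.8% of all 12385 genes tested in embryos, 12.0% higher and 7.74% lower. At an unadjusted p under 0.05 the edgeR test gave 4112 of these genes, in either direction. DESeq2 called 3445 of 21151 genes, 1518 of them lower, and limma voom 2620 of 12385, 1203 of them lower. The list counts were not tested against these shares. Of 8 CtBP genes tested, edgeR called 1 lower, against 3 lower at an unadjusted p under 0.05, 3 by DESeq2, 4 by limma voom and 2 in 5 of the 16 omissions of an embryo, with none called higher in these settings. The gene called, Ctbp2, the corepressor itself, kept its call in all 16 omissions and had 34.5 ± 18.4 CPM in Klf5 siRNA embryos and 95.3 ± 38.3 CPM in scramble embryos (SD, n = 6 and 10, log2 fold change -1.47 ± 0.36, edgeR adjusted p = 0.00696). Of 13 Sin3 genes, 2 rose and 1 fell. Sap18 and Brms1l, subunits of the complex, were 2.04-fold and 2.89-fold higher with Klf5 siRNA (edgeR adjusted p = 0.00580 and 0.0170). Sin3a, its scaffold, was 1.80-fold lower, at 14.5 ± 6.20 CPM in Klf5 siRNA embryos and 26.1 ± 5.72 CPM in scramble embryos (edgeR adjusted p = 0.0412). Sap18 kept its call in all 16 omissions and Brms1l in 15, while Sin3a kept it in 5 and lost it in 11, among them those of Klf5 siRNA 2 to 5 (highest edgeR adjusted p = 0.0882). The list medians were -0.70 for CtBP genes and -0.12 for Sin3 genes, against -0.01 over all genes.

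Of 12 TGF-beta response genes tested in embryos, 1 fell, Smad4, the shared mediator of TGF-beta and BMP signals (2.19-fold lower with Klf5 siRNA, edgeR adjusted p = 0.00368), with a list median of -0.50. Among 13 hormone and clock genes, Nr3c1, the glucocorticoid receptor, was 4.15-fold higher, and Nr1d2, a repressor of the clock, had a mean of 0.110 CPM in Klf5 siRNA embryos and 4.25 CPM in scramble embryos (edgeR adjusted p = 0.00356 and 0.00509). Among 14 immediate early genes, Btg2 and Ier3 rose (edgeR adjusted p = 0.00118 and 0.00636) and Ier2 and Srf fell (edgeR adjusted p = 0.0117 and 0.0416). Smad4, Nr3c1, Nr1d2, Btg2, Ier3 and Ier2 kept their calls in all 16 omissions of an embryo. Srf lost its call in 11 of 16, that of the embryo labelled Klf5 siRNA 1 among them (edgeR adjusted p = 0.0539, highest 0.0814). No Sp factor of 5 tested was called by edgeR, against 1 lower at an unadjusted p under 0.05, 1 lower by DESeq2 and none by limma voom.

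Cell type markers moved with the embryo groups as well, beside 12.0% of all genes tested called higher and 7.74% lower. The 12 trophectoderm markers summed to between 245 and 3844 CPM in Klf5 siRNA embryos (highest 3750 CPM without the embryo labelled Klf5 siRNA 1) and between 3151 and 9117 CPM in scramble embryos, with none at 0 throughout a group, and 8 of 12 fell. Gata3, a trophectoderm transcription factor, had 101 ± 49.6 CPM with Klf5 siRNA and 197 ± 39.5 CPM with scramble siRNA (edgeR adjusted p = 0.0148), and the number called lower was 6 to 9 over the 16 omissions. The 12 markers of inner cell mass and epiblast summed to between 6438 and 17295 CPM with Klf5 siRNA and between 3860 and 11999 CPM with scramble siRNA, with 1 of 12 called higher and 1 lower (0 to 2 each over the omissions), and 2 of 12 primitive endoderm markers fell, with sums of 242 to 633 CPM with Klf5 siRNA and 480 to 841 CPM with scramble siRNA. The part of these cell types in the levels of Klf9 and Klf13 was not tested.

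For each of the 7 genes measured in embryos, the genes of most similar pattern over the 16 embryos were found. The measure was the mean absolute difference of log2 CPM standardised per gene, where 0 is an identical pattern and the median over all genes was 1.05 to 1.12. Standardising removes the level, so genes near in pattern can differ in abundance. Nearest to Klf9 were Vps54, a subunit of a vesicle-tethering complex (0.261), and Nsd2, a histone H3 methyltransferase (0.350), and nearest to Klf13 were Slc44a1, a choline transporter (0.314), and Zfp598, a ubiquitin ligase of stalled ribosomes (0.334). Hcfc2 (0.314) was nearest to Klf6, Abtb1 (0.404) to Klf3, Copg1 (0.414) to Klf7, Afap1l1 (0.439) to Klf10 and Fbxl16 (0.449) to Klf16. Next came Mycbpap (0.438) for Klf6, Fbxo21 (0.445) for Klf3, Lima1 (0.424) for Klf7, Adpgk (0.462) for Klf10 and Garnl3 (0.512) for Klf16. The nearest genes share libraries, siRNA group and depth with the gene they resemble, and the likeness is given as a description.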

How the data were processed

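The authors deposited estimated counts (expected counts) for each Ensembl gene, with no normalization between libraries. Per the submitters' processing notes, kallisto 0.46 and mm10 were used. How transcripts were summed to genes and the annotation release are not given in the sources used here. Rounding these estimates to whole numbers moved library totals by at most 0.000756%. Symbols of 29910 genes came from GENCODE M21 (same assembly as mm10), 355 had none, and Ctgf and Cyr61 were found under newer symbols through RefSeq synonyms. Promoters came from RefSeq, and protein sequences were not used here. Groups followed the labels' titles and genotypes, with no library left out. Per the labels' protocols, ESC libraries used TruSeq v2 reagents and embryo cDNA the SMARTseq-V4 kit, so the experiments were fitted apart.

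After filterByExpr (lowest count 10) and TMM scaling, all genes kept were tested by the robust quasi-likelihood F test of edgeR 4.0.16 in R 4.3.3, with p adjusted by Benjamini and Hochberg with a threshold of 0.05. SE is the log2 fold change over the root of F. CPM use TMM-scaled library sizes. Log2 CPM carry a prior count of 2, and log2 levels per kilobase one of 0.5. Relations at 10 embryos used 100000 permutations. Alternatives were RLE scaling, DESeq2 1.42.0, limma voom 3.58.1, no filter, a 5 CPM filter, libraries left out, a replicate block, a length offset (lowess span 0.3), the mitochondrial percent as a covariate, median transcript length and other prior counts. The crossed ESC pairing, the omission of scramble 5 and 6, and the length offset and covariate without Klf5 siRNA 1, were chosen after seeing the data. The genes, lists and tests were chosen with earlier results of these data known. The genes named are the 8, Klf5, up to 4 called per list or else that with the smallest p, and the 2 nearest to each, not all of which are reported here. Estimates that are not whole numbers, from reads that several genes share, occurred for Klf3, Klf10 and Klf13 in all 20 libraries, for Klf6 in all 4 ESC and 8 embryo libraries, and for Klf12 wherever it was above 0, so the level of these genes is less certain. No 2 libraries of the same group were repeats, with the lowest chi-square per degree of freedom at 17.5 in ESCs and 58.6 in embryos. Libraries of different groups were not compared in this way. The fits were tested on simulated data.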

Additional observations from a re-analysis of the deposited data

Results flagged for a closer look

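Among 14 groups of embryo values searched with Dixon's test, 3 had a sample far from the others of its group, where chance gives about 1 in 20. Klf3 in the embryo labelled Klf5 siRNA 1, at 1.20 CPM, lay far below the other Klf5 siRNA embryos on the log2 scale used for all 3. Klf10 in scramble 3 was at 0 CPM after rounding, where the other 9 scramble embryos had counts. Klf13 in scramble 5, at 11.6 CPM, lay far below the other scramble embryos. Scramble 5 also had the lowest mitochondrial percent of its group, 4.34%, and the lowest Klf9. What set these values apart was not tested.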

How the results depend on the processing

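Of the 8 genes in ESCs, 2 were called by edgeR as reported and with RLE scaling, no filter or a 5 CPM filter, always Klf3 and Klf9, against 4 by DESeq2 (with Klf6 and Klf13) and 0 by limma voom (4 at an unadjusted p under 0.05; adjusted p = 0.0537 for Klf3 and 0.0585 for Klf9). Leaving out 1 library gave 0 to 5. Deviations of same-numbered libraries correlated at -0.108 in ESCs and at -0.114 to 0.108 in embryos, so no pairing by replicate number was seen. With 2 libraries a group, both ESC pairs give the same value by construction, which cannot exclude a pairing there. With the replicate block 0 were called in ESCs (5 at an unadjusted p under 0.05), and with the crossed pairing, chosen after seeing the data, 3. Klf10 in ESCs turned to -0.065 without Klf5-overexpressing library 1, and ran from there to 0.55 over the omissions.

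Of the 7 genes tested in embryos, 2 were called by edgeR as reported, by DESeq2, with RLE scaling, no filter or a 5 CPM filter, and without scramble 5 and 6 (chosen after seeing the data), always Klf9 and Klf13, and 3 by limma voom (with Klf7). Leaving out 1 embryo gave 0 to 2. The count by edgeR was 0 with the replicate block in 12 embryos (1 at an unadjusted p under 0.05), in those 12 without the block (2), with the length offset (0), with the mitochondrial covariate (0), with the length offset or the covariate when Klf5 siRNA 1 was left out too (2 and 1, chosen after seeing the data), and without Klf5 siRNA 2 and 4 (1), where Klf6 turned to -0.38; those 2 hold the lowest Klf9 and highest Klf6 of their group, so this follows from the omission. Klf3 turned to 0.12 with the length offset without Klf5 siRNA 1, and the cause was not tested. Over all genes, calls in ESCs were 444 as reported, 1435 by DESeq2, 115 by voom, 870 without a filter, 155 with the block, 1475 crossed and 1 to 998 with a library left out, and in embryos 2447 as reported, 902 with the block and 1423 in the 12 embryos without it. Calls over all genes in embryos were 2040 with the length offset and 2142 with the mitochondrial covariate. When Klf5 siRNA 1 was left out too, they were 2032 with the length offset and 2052 with the covariate. Without Klf5 siRNA 2 and 4 they were 1903. The median of all genes in embryos moved to -0.12 by voom, 0.10 by DESeq2 and -0.13 with the block.

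Of the neighbouring pairs of levels, 4 differed as reported, under every embryo left out and with a prior count of 2, and 5 with the median transcript length, where Klf13 lay above Klf9 in 10 of 10 embryos and the order became Klf6, Klf13, Klf9, Klf3, Klf10, Klf7, Klf16 and Klf12. No relation to Klf5 passed under the settings run; relations over the 5 embryos left when 1 Klf5 siRNA embryo is left out were not run, since relations were computed over at least 6 embryos.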
